A study of Mus musculus with 9 samples.

Results

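The genes described here are core components of the Notch signalling pathway. They are the receptors Notch1, Notch2 and Notch3, the ligands Dll1, Dll3, Jag1 and Jag2, and the target genes Hes1, Hes5 and Hey1, referred to together as the members. They were chosen by gene symbol, and all 10 were found among the 38197 symbols of the expression tables. All 10 also passed the filter on low counts that left 14742 genes for testing.

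Notch receptors are cut when a ligand on a neighbouring cell binds them, and the freed intracellular domain enters the nucleus, where it joins the DNA-binding protein RBPJ and a Mastermind-like coactivator to switch on Hes and Hey genes. The Hes and Hey proteins are transcriptional repressors that hold back the proneural genes. In the developing neural tube this exchange, called lateral inhibition, keeps part of the cells as progenitors while their neighbours become neurons.

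RNA was sequenced from wild type mouse embryonic stem cells of strain 129 that were differentiated as a monolayer into neural progenitors. All cultures received RA (retinoic acid) and SAG (a small molecule that activates Smoothened, the transducer of Shh signalling) from 0 to 3 DDC, days in differentiation conditions. Cells with Prominin-1 on their surface, as neural progenitors have, were isolated at 4.5DDC, 5.5DDC and 6.5DDC, with 3 libraries at each time point and 9 in all, to follow how such progenitors change with time. Each library is a pool of sorted cells, so fewer cells of a type and less RNA per cell cannot be told apart in any value given here.

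The total counts were 17820601, 11244486 and 14390488 in replicates 1 to 3 at 4.5DDC. They were 25506193, 11573523 and 11066568 at 5.5DDC, and 12851786, 16479972 and 15913821 at 6.5DDC. At these depths a detection floor of 3 counts corresponds to between 0.118 and 0.271 CPM (counts scaled to the library total), counting error only. Levels are given in FPKM, fragments scaled to transcript length and sequencing depth, which allows genes of different length to be compared.

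The labelled cell type was compared with marker genes. The 8 neural progenitor markers summed to between 1726 and 2982 FPKM in the 9 libraries, and Vim was the most abundant of them with a mean of 1791 FPKM. Mean levels of Sox2, a core transcription factor of neural progenitors, were 82.1, 85.3 and 87.6 FPKM at the successive time points. Prom1, which encodes Prominin-1 itself, had means of 79.1, 104 and 183 FPKM and rose from 4.5DDC to 6.5DDC by 1.19 on the log2 scale (SE 0.18, edgeR adjusted p = 0.00363), with all 3 later libraries above all 3 earlier ones. Of the other markers in the list Sox3 fell by 1.80 (SE 0.49, adjusted p = 0.0330), while Pax6 (-1.85, adjusted p = 0.0575) and Msi1 (-0.56, adjusted p = 0.0740) did not pass in edgeR. DESeq2 called Prom1, Sox3, Pax6 and Msi1, and limma voom called Prom1 alone.

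Neuronal transcripts were present as well, and replicate 1 stood apart in their sum. The neuron markers found in the tables, 7 of 8 with Tubb3 missing, summed to 153, 299 and 239 FPKM in replicates 1 to 3 at 4.5DDC. The sums were 152, 397 and 417 FPKM at 5.5DDC and 250, 576 and 631 FPKM at 6.5DDC. Replicate 1 was thus the lowest library at each time point. Among radial glia markers it was the lowest at each time point in Fabp7, which makes up most of their sum, and the highest in Slc1a3, at 18.7, 39.0 and 47.6 FPKM beside 13.1, 25.8 and 44.4 FPKM in replicate 2 and 12.3, 23.5 and 44.9 FPKM in replicate 3. Stmn2, a tubulin-binding protein of growing axons, was the most abundant neuron marker with a mean of 108 FPKM, and no neuron marker was at or under 3 counts in all libraries.

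Markers of other cell types that use Notch signalling were measured too. Endothelial markers summed to between 1.26 and 8.77 FPKM, with Cdh5 the most abundant (mean 2.79 FPKM) and Tie1 and Erg at or under 3 counts in every library. Presomitic mesoderm markers reached at most 1.89 FPKM, with Msgn1 at 0 counts in all 9 libraries. Mural cell markers summed to between 27.3 and 169 FPKM, and at 5.5DDC replicate 1 was at 140 FPKM beside 28.5 and 27.3 FPKM. Most of the sum in each library came from Tagln, with a mean of 51.7 FPKM, and Acta2. The rest of the list stayed low in all libraries, with Pdgfrb at most at 2.62 FPKM and Rgs5 at 0.69 FPKM. Cspg4 and Abcc9 reached at most 0.12 and 0.07 FPKM and were not tested for differences, because of low counts. The part of these other cell types in the levels of the Notch genes was not tested.

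The receptor genes encode the single-pass proteins that receive the signal. Notch1 (chr2:26457903-26516663, minus strand, GRCm38) was at 24.8, 31.2 and 25.5 FPKM in replicates 1 to 3 at 4.5DDC, at 44.4, 26.8 and 35.6 FPKM at 5.5DDC, and at 12.1, 17.5 and 39.4 FPKM at 6.5DDC. By FPKM replicate 3 at 6.5DDC lay above every 4.5DDC library while replicates 1 and 2 lay below them. By counts it lay inside the 4.5DDC range, at 207 CPM beside 164 to 262 CPM, and replicates 1 and 2 lay below at 82.7 and 124 CPM. The 5.5DDC libraries, at 297, 231 and 224 CPM, lay above all 6.5DDC libraries by counts, while by FPKM they overlapped. From 5.5DDC to 6.5DDC the fitted log2 difference of Notch1 was -0.85 (95% interval -1.47 to -0.22, edgeR adjusted p = 0.186), and from 4.5DDC to 6.5DDC it was -0.63 (95% interval -1.26 to -0.01, adjusted p = 0.137). Without replicate 3 at 6.5DDC the latter value was -1.002 with an adjusted p of 0.0274, the lowest of a range that reached 0.482 over the alternative settings.

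Notch2 (chr3:98013527-98150361, plus strand) was at 34.2, 20.4 and 20.2 FPKM at 4.5DDC, 48.5, 28.3 and 28.8 FPKM at 5.5DDC, and 25.3, 27.2 and 29.3 FPKM at 6.5DDC. Replicate 1 was the highest library at 4.5DDC and 5.5DDC and the lowest at 6.5DDC. The 4.5DDC to 6.5DDC log2 difference was 0.12 (95% interval -0.44 to 0.68, edgeR adjusted p = 0.766). In a fit without the 3 libraries numbered 1, chosen after seeing the data, Notch2 was higher at 6.5DDC by 0.43 with an adjusted p of 0.0397, in a range over the settings of 0.0397 to 0.975.

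Notch3 (chr17:32120820-32166852, minus strand) was the receptor with the lowest mean and the tightest spread at 5.5DDC. Its levels were 18.6, 20.8 and 13.3 FPKM at 4.5DDC, 26.5, 22.6 and 21.3 FPKM at 5.5DDC, and 12.1, 9.68 and 16.7 FPKM at 6.5DDC. All 3 libraries at 5.5DDC lay above all libraries of the other time points. Neither step passed the test, with log2 differences of 0.38 from 4.5DDC to 5.5DDC (95% interval -0.07 to 0.84, edgeR adjusted p = 0.401) and -0.84 from 5.5DDC to 6.5DDC (95% interval -1.30 to -0.39, adjusted p = 0.112). DESeq2 gave an adjusted p of 0.0114 for the second of these steps, and over the alternatives this p ranged from 0.0114 to 0.411.

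The ligand genes encode the membrane proteins that are presented to neighbouring cells. Dll1 (chr17:15367354-15376872, minus strand), a Delta ligand typical of nascent neurons, was at 47.3, 57.6 and 36.2 FPKM in replicates 1 to 3 at 4.5DDC. It was at 39.2, 62.3 and 71.1 FPKM at 5.5DDC and at 13.8, 40.2 and 64.6 FPKM at 6.5DDC. The SD between replicates was 10.7, 16.5 and 25.4 FPKM at the successive time points, and the libraries of all time points overlapped. Exons of A930024N18Rik on the opposite strand cover 20.6% of its exon bases. The 4.5DDC to 6.5DDC log2 difference was -0.43 (95% interval -1.26 to 0.39, edgeR adjusted p = 0.431), and with 1 library left out it lay between -0.86 and -0.083.

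Dll3 (chr7:28293553-28302238, minus strand) encodes a divergent Delta protein that does not activate Notch in trans. It was at 8.53, 10.1 and 5.92 FPKM at 4.5DDC, 5.02, 9.37 and 4.80 FPKM at 5.5DDC, and 1.83, 3.98 and 7.05 FPKM at 6.5DDC. Replicates 1 and 2 at 6.5DDC lay below all 4.5DDC libraries, and replicate 3 did not. The log2 difference over the whole span was -1.07 (95% interval -1.92 to -0.21, edgeR adjusted p = 0.0786). Among the settings in which it passed were DESeq2 (adjusted p = 0.0331) and a fit without replicate 3 at 6.5DDC (-1.68, adjusted p = 0.00984), and the adjusted p ranged from 0.00984 to 0.227 over the alternatives.

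Jag1 (chr2:137081456-137116644, minus strand), a Serrate-type ligand, was at 11.8, 18.8 and 16.7 FPKM at 4.5DDC, 7.999, 15.6 and 16.1 FPKM at 5.5DDC, and 4.86, 12.1 and 13.8 FPKM at 6.5DDC. Replicate 1 was the lowest library at each time point, as it was for the neuron marker sum. The whole-span log2 difference was -0.59 (95% interval -1.40 to 0.21, edgeR adjusted p = 0.264). With the replicate number as a block it was -0.68 with an edgeR adjusted p of 0.0179. In the fit without the libraries numbered 1, chosen after seeing the data, it was -0.47 with an adjusted p of 0.0279. Over the alternatives the adjusted p ranged from 0.00729 to 0.516.

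Jag2 (chr12:112907819-112929776, minus strand), the other Serrate-type ligand, had the lowest mean of the members at every time point. Its levels lay between 0.294 and 1.34 FPKM and its counts between 19 and 158, so small differences rest on few reads. The whole-span log2 difference was -0.73 (95% interval -1.83 to 0.36, edgeR adjusted p = 0.310), and with 1 library left out it lay between -1.31 and -0.37.

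**Figure D1:**
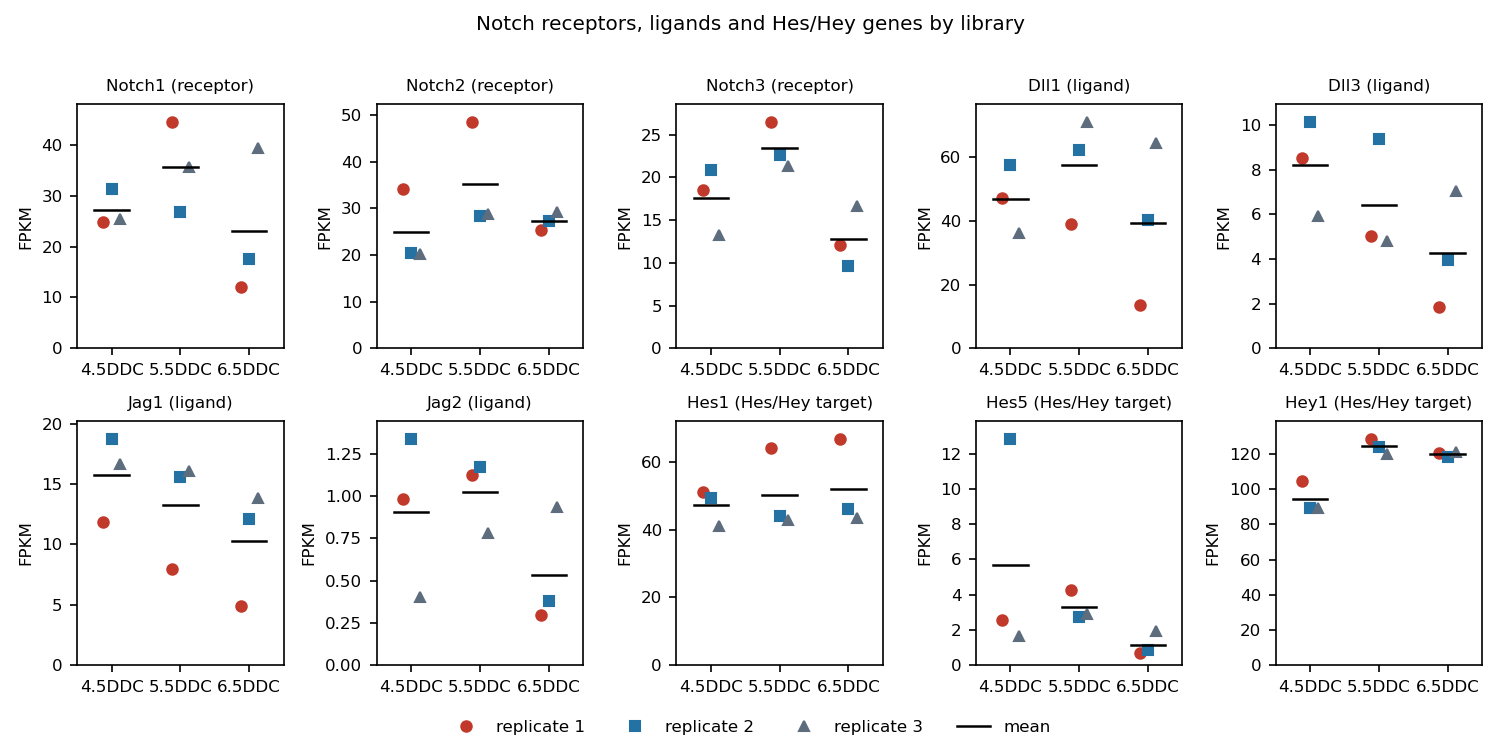
Level in FPKM (vertical axes, each from 0) of each of the 10 genes at 4.5DDC, 5.5DDC and 6.5DDC (horizontal axes), with 1 symbol for each library and a line for the mean of 3. Hey1 libraries lie close together at 5.5DDC and 6.5DDC, while Dll1, Notch1 and Dll3 spread widely at 6.5DDC with replicate 1 lowest and replicate 3 highest.

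The target genes encode repressors that carry out the Notch response. Hes1 (chr16:30064384-30067796, plus strand), which is also driven by other signals, was at 51.3, 49.4 and 41.1 FPKM at 4.5DDC, 64.2, 44.1 and 42.7 FPKM at 5.5DDC, and 66.9, 46.0 and 43.4 FPKM at 6.5DDC. Replicate 1 was the highest library at each time point. The whole-span log2 difference was 0.14 (95% interval -0.35 to 0.62, edgeR adjusted p = 0.683). Its sign turned to -0.06 without the libraries numbered 1.

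Hes5 (chr4:154960923-154962371, plus strand), a classical readout of Notch signalling in neural progenitors, was at 2.55, 12.9 and 1.65 FPKM at 4.5DDC, 4.23, 2.75 and 2.88 FPKM at 5.5DDC, and 0.684, 0.829 and 1.90 FPKM at 6.5DDC. The 4.5DDC mean of 5.69 FPKM (SD 6.23, n = 3) was set mainly by replicate 2. All 3 libraries at 6.5DDC lay below all 3 at 5.5DDC, while replicate 3 at 6.5DDC overlapped the 4.5DDC range. Counts of the gene ran from 12 to 167.

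The whole-span log2 difference of Hes5 was -2.10 (95% interval -3.57 to -0.62, edgeR adjusted p = 0.0522), which missed the threshold of 0.05. DESeq2 gave an adjusted p of 0.00882, and the range over the alternatives was 0.00882 to 0.232. Without replicate 2 at 4.5DDC the sign of the 4.5DDC to 5.5DDC difference turned from -0.92 to 0.24, and the whole-span value was -0.94. Exons of the noncoding gene Gm20421 on the opposite strand cover 31.8% of the exon bases of Hes5, and the strand setting of the counting is not stated, so reads of these genes cannot be told apart where they overlap.

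Hey1 (chr3:8663359-8667256, minus strand), a repressor of the Hairy-related family, was the most abundant member in each library. It was at 104, 89.6 and 89.5 FPKM at 4.5DDC, 129, 124 and 120 FPKM at 5.5DDC, and 121, 119 and 122 FPKM at 6.5DDC. All 6 later libraries lay above all 3 at 4.5DDC. The log2 difference was 0.36 from 4.5DDC to 5.5DDC (95% interval 0.10 to 0.61, edgeR adjusted p = 0.207) and 0.34 over the whole span (95% interval 0.08 to 0.59, adjusted p = 0.0658), so neither passed the test. For the whole span DESeq2 gave an adjusted p of 0.0182 and limma voom 0.0480, within a range of 0.0182 to 0.198 over the alternatives.

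**Figure D2:**
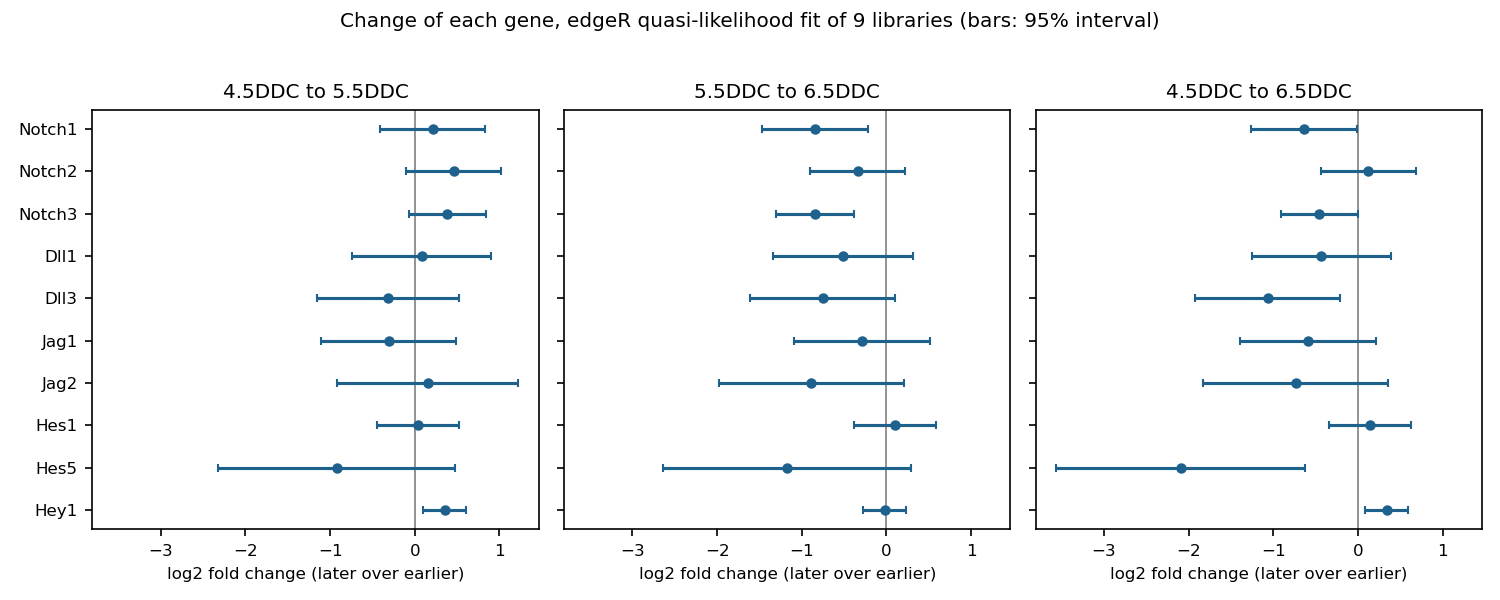
Fitted log2 fold change, later over earlier (horizontal axes), of each of the 10 genes (vertical axis) in the 3 pairs of time points, from edgeR on 9 libraries with 95% intervals as bars. Intervals are narrowest for Hey1 and widest for Hes5, and no gene passed the adjusted threshold of 0.05.

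The promoters of Hes5 and of Lfng and Nrarp, a pair of Notch pathway genes whose values follow further on, are shown because RBPJ binds Notch target promoters. The sequences are the bases before the transcription start in RefSeq on GRCm38.p6, read in the direction of the gene. Capitals mark the RBPJ motif TGGGAA or its complement TTCCCA.
Hes5: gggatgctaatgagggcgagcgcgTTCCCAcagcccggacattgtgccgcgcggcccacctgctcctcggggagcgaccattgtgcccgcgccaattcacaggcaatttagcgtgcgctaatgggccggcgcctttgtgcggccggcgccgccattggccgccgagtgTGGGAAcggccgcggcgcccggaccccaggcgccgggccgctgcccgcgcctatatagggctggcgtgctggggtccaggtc
Lfng: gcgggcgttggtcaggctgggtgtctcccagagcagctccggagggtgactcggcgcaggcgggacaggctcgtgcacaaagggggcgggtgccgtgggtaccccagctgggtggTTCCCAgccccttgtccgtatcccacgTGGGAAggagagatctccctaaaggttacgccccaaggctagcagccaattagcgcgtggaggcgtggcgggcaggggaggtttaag
Nrarp: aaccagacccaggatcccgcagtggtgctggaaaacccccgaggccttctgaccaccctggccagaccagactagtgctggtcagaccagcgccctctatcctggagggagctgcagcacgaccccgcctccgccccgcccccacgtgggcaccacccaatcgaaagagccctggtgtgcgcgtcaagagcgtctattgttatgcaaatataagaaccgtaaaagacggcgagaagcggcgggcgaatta
Hes5 (chr4:154960673-154960922, plus strand) held 2 matches, which start at positions -226 and -82 relative to the transcription start. Lfng (chr5:140607091-140607319, plus strand) held 2 matches, at -135 and -108. Its sequence is printed up to its first annotated exon, and the positions count from the RefSeq start. The Nrarp sequence (chr2:25180508-25180757, plus strand) held 0. RefSeq promoters were matched for 8 of the 10 members, and Hes5 was the 1 with a match among Notch1, Notch2, Notch3, Dll1, Dll3, Jag1, Jag2 and Hes5. Hes1 and Hey1 had no entry. Of the 8 pathway genes that passed the test over the whole span, 7 were matched and 2 held the motif, Lfng and, in 1 of its promoters, Maml2. Of all 32851 promoters of 250 bases, 21.6% hold the motif on either strand, and a match is a description of the letters only.

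The order of levels was stable at its ends. Hey1 had the highest mean at each time point, at 94.5 ± 8.66, 124 ± 4.36 and 120 ± 1.57 FPKM (SD, n = 3), and its libraries did not overlap those of the next gene. Hes1 and Dll1 followed and overlapped each other at every time point. Next came Notch1 and Notch2, which also overlapped, then Notch3, Jag1, Dll3, Hes5 and Jag2. At 6.5DDC each gene below Hey1 overlapped its neighbour in the order.

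Set against all genes tested, the mean of Hey1 over 9 libraries, 113 FPKM, was at percentile 94.3. Hes1 was at percentile 84.6 and Dll1 at 83.9, with means of 49.9 and 48.0 FPKM. At the other end Jag2 was at percentile 10.1 with a mean of 0.823 FPKM.

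Within each role a few genes supplied most of the summed level. Dll1 made up 69.8% of the summed ligand FPKM on average over 9 libraries, ranging from 61.1% to 76.6%, beside 19.7% for Jag1, 9.24% for Dll3 and 1.23% for Jag2. The receptor sum was spread more evenly, with 39.2% from Notch2, 37.1% from Notch1 and 23.7% from Notch3 on average over 9 libraries. The order of Notch1 and Notch2 differed by time point. Notch1 had the larger mean share at 4.5DDC (39.4% beside 35.5%) and at 5.5DDC (37.8% beside 36.9%). At 6.5DDC Notch2 had the larger share (45.2% beside 34.2%). Hey1 supplied 68.0% of the sum of the 3 target genes Hes1, Hes5 and Hey1, Hes1 29.9% and Hes5 2.09%. The Hes5 share ran from 0.363% in replicate 1 at 6.5DDC to 8.47% in replicate 2 at 4.5DDC.

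The sums of each role differed between replicates as well as between time points. The 4 ligands summed to 68.6, 87.8 and 59.2 FPKM in replicates 1 to 3 at 4.5DDC, 53.3, 88.4 and 92.8 FPKM at 5.5DDC, and 20.8, 56.7 and 86.4 FPKM at 6.5DDC. Replicate 1 had the lowest ligand sum at 5.5DDC and 6.5DDC, while at 4.5DDC, where its neuron marker sum was also lowest, replicate 3 had the lowest ligand sum. The 3 receptors summed to 77.6, 72.4 and 58.9 FPKM at 4.5DDC, 119, 77.7 and 85.7 FPKM at 5.5DDC, and 49.6, 54.4 and 85.3 FPKM at 6.5DDC. Here replicate 1 was highest at the earlier pair of time points and lowest at 6.5DDC.

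Hes1, Hes5 and Hey1 summed to 158, 152 and 132 FPKM at 4.5DDC, 197, 171 and 166 FPKM at 5.5DDC, and 188, 165 and 167 FPKM at 6.5DDC, with replicate 1 highest throughout. Among the 6.5DDC libraries replicate 1 was the lowest for 7 of the 10 members and replicate 3 the highest for 9. At 4.5DDC replicate 2 was the highest for 7 and replicate 3 the lowest for 8. Shares of all genes with such extremes were not counted. FPKM over all genes summed to 713388, 797571 and 721412 in replicates 1 to 3 at 4.5DDC. At 6.5DDC these totals were 721832, 666085 and 665856. The part of the neuron content in the differences between replicates of the members was not tested.

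**Figure D3:**
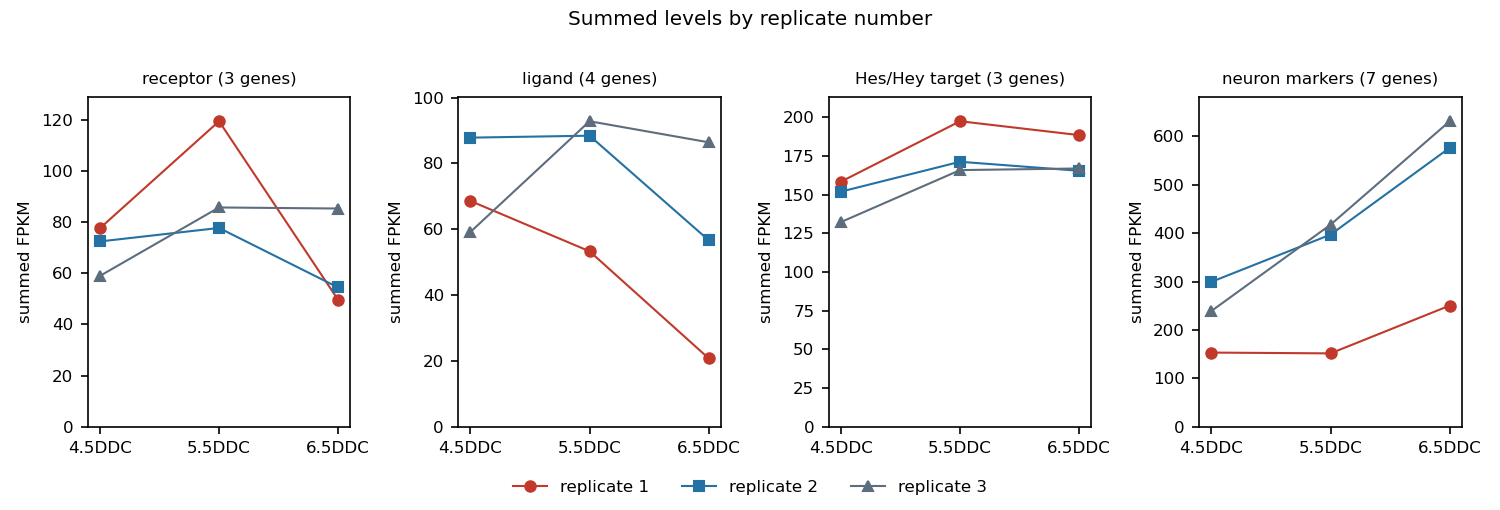
Summed FPKM (vertical axes, from 0) of the receptors, ligands, Hes/Hey targets and neuron markers at each time point (horizontal axes), with lines joining libraries of the same replicate number, which the labels do not say come from the same culture. Replicate 1 is lowest in the neuron marker sum at each time point and is at 20.8 FPKM in ligands at 6.5DDC.

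The comparisons ask which members differ between time points by more than the spread of the 3 libraries, in an edgeR quasi-likelihood fit of the counts with p-values adjusted over all 14742 genes. The labels do not say that replicates are separate cultures, and the p-values then measure only the spread between these samples. From 4.5DDC to 5.5DDC 0 of the 10 members passed an adjusted p of 0.05, where 11 genes in all passed, 0.0746% of those tested. From 5.5DDC to 6.5DDC 0 members passed, beside 33 genes or 0.224%. With a background this low a count of 0 among 10 genes is near the share of all genes. With the replicate number as a block, 212 and 195 genes passed in these intervals and 0 and 0 members.

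From 4.5DDC to 6.5DDC 0 of 10 members passed in edgeR, beside 2763 genes or 18.7%, of which 1358 (9.21%) were higher and 1405 (9.53%) lower at 6.5DDC. At an unadjusted p under 0.05 the count of members was 1 in the first interval, 2 in the second interval and 5 over the whole span, beside 15.4%, 18.5% and 35.4% of all genes. The first was Hey1, the second were Notch1 and Notch3, and the whole-span genes were Notch1, Notch3, Dll3 and Hes5 on the lower side and Hey1 on the higher side. DESeq2 called 0, 1 and 3 members in the successive comparisons, the 1 being Notch3 and the 3 being Dll3, Hes5 and Hey1, beside 3.36%, 4.49% and 24.9% of all genes. Limma voom called 0, 0 and 1, the last being Hey1, beside 0.0746%, 0.251% and 18.0%.

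The median log2 difference of the 10 members was 0.12 from 4.5DDC to 5.5DDC, with 7 above 0. It was -0.63 from 5.5DDC to 6.5DDC, with 9 below 0, and -0.53 over the whole span, with 7 below 0. Over all genes tested the medians were 0.0094, 0.019 and 0.0040. The second and first intervals share the 5.5DDC libraries, so a high value there enters both.

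By FPKM, members whose libraries did not overlap between time points were also counted. They were 2 of 10 from 4.5DDC to 5.5DDC (Notch3 and Hey1, both higher), beside 23.8% of all genes. They were 2 from 5.5DDC to 6.5DDC (Notch3 and Hes5, both lower), beside 24.0%, and 1 over the whole span (Hey1, higher), beside 34.5%.

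A test of any difference among the 3 time points called 0 members in edgeR, beside 1420 genes or 9.63%, and 4 members had an unadjusted p under 0.05, beside 28.8% of all genes. Limma voom also called 0 members in this test. The lowest adjusted p among the members was 0.0605, for Notch3. The difference between the intervals was tested as well and called 0 genes, or 0%, by edgeR, DESeq2 and limma voom. In edgeR 1 of 10 members, Notch3, had an unadjusted p under 0.05, beside 701 genes or 4.76% of all genes. For Notch3 the second interval minus the first was -1.23 on the log2 scale (SE 0.34, edgeR adjusted p = 0.760).

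FPKM and counts are not interchangeable for every member. The ratio of FPKM to CPM, which would be constant for a gene of fixed length, differed between libraries by up to 1.96-fold for Hes5, 1.68-fold for Dll3, 1.64-fold for Notch1 and 1.36-fold for Dll1. For Notch2, Notch3 and Hey1 it differed by 1.03-fold each, and the median of all genes with 10 or more counts in each library was 1.14-fold. For Hes5, replicate 1 at 5.5DDC had the highest ratio.

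The other genes of the pathway were counted in the same way. Of 52 listed genes, 47 were tested, and Dlk2, Psenen, Hes2, Hes7 and Helt were not, because of low counts. No listed gene passed in edgeR from 4.5DDC to 5.5DDC or from 5.5DDC to 6.5DDC, where 7 and 9 (14.9% and 19.1%) had an unadjusted p under 0.05, beside 15.4% and 18.5% of all genes. DESeq2 called 1 listed gene in each of these intervals, Aph1b on the higher side both times, beside 3.36% and 4.49% of all genes, and limma voom called 0 in each. From 4.5DDC to 6.5DDC 5 rose and 3 fell, or 17.0% of 47, beside 18.7% of all genes, and the median log2 difference of the list was 0.13. DESeq2 called 11 of them over the whole span (23.4%, beside 24.9% of all genes) and limma voom 6 (12.8%, beside 18.0%).

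Among the genes of receptor cleavage 3 of 9 tested rose and 0 fell, beside 9.21% and 9.53% of all genes. Adam10, the metalloprotease that makes the ligand-dependent cut, was at 60.9, 51.5 and 65.4 FPKM at 4.5DDC and at 102, 100.4 and 89.1 FPKM at 6.5DDC. It rose by 0.70 on the log2 scale (SE 0.14, edgeR adjusted p = 0.0114). Ncstn, the substrate-binding subunit of gamma-secretase, was at 69.9, 56.5 and 57.1 FPKM at 4.5DDC and at 97.5, 87.3 and 99.0 FPKM at 6.5DDC, and rose by 0.68 (SE 0.13, adjusted p = 0.00766).

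Aph1b, another subunit of gamma-secretase, was at 3.68, 3.01 and 4.00 FPKM at 4.5DDC and at 8.88, 10.2 and 9.96 FPKM at 6.5DDC. It rose by 1.46 on the log2 scale, a 2.74-fold difference (SE 0.20, edgeR adjusted p = 0.00224). For each of these 3 genes all 6.5DDC libraries lay above all 4.5DDC libraries. The Adam10 call was lost without replicate 2 at 6.5DDC (adjusted p = 0.0516, the highest of a range from 0.000185), and those of Ncstn and Aph1b were kept in all 21 alternatives.

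Among the Fringe and O-glycosylation genes, which modify the receptor and set which ligands it answers to, 2 of 5 fell and 0 rose, beside 9.53% and 9.21% of all genes. Lfng was at 20.1, 26.04 and 13.0 FPKM at 4.5DDC and at 10.2, 6.52 and 12.7 FPKM at 6.5DDC, and fell by 1.02 on the log2 scale (SE 0.28, edgeR adjusted p = 0.0345). Mfng was at 26.6, 34.2 and 18.2 FPKM at 4.5DDC and at 6.36, 7.79 and 13.0 FPKM at 6.5DDC, and fell by 1.34 (SE 0.34, adjusted p = 0.0237). For both genes all later libraries lay below all earlier ones, although for Lfng replicate 3 did so by a small margin.

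The Lfng call was lost in 10 of 21 alternatives, with adjusted p between 0.00576 and 0.124. Among them were limma voom (0.0508), a fit of the 6 libraries alone (0.0607), and fits without replicates 1 or 2 at 4.5DDC (0.0678 and 0.124), replicates 2 or 3 at 5.5DDC (0.0520 and 0.0501) or replicate 2 at 6.5DDC (0.112). The Mfng call was lost in 4, without replicate 2 at 4.5DDC (0.0882), replicate 1 at 6.5DDC (0.0519) or replicate 2 at 6.5DDC (0.0915) and in the fit of 6 libraries (0.0532), in a range from 0.00128 to 0.0915.

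Nrarp, a direct Notch target that feeds back to destabilise the receptor's intracellular domain, was the 1 gene of 10 inhibitor and turnover genes that fell, beside 9.53% of all genes. It was at 24.3, 32.0 and 28.2 FPKM at 4.5DDC, 15.7, 27.0 and 27.4 FPKM at 5.5DDC, and 10.6, 14.7 and 15.7 FPKM at 6.5DDC. All 6.5DDC libraries lay below all 4.5DDC libraries, and the gene fell by 1.06 on the log2 scale (SE 0.23, edgeR adjusted p = 0.0137). Without replicate 2 at 4.5DDC the adjusted p was 0.0528, the highest of a range from 0.000435. Exons of the antisense gene Gm38287 cover 79.4% of its exon bases, so with the strand setting not stated the reads counted for Nrarp may include reads of Gm38287.

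Among the genes of the nuclear complex Maml2 rose, 1 of 10 tested, beside 9.21% of all genes. DESeq2 called Maml1 as well, on the lower side (edgeR log2 difference -0.40, adjusted p = 0.0546). Maml2, a Mastermind-like coactivator, was at 12.2, 8.59 and 12.1 FPKM at 4.5DDC and at 28.2, 22.9 and 18.5 FPKM at 6.5DDC, without overlap. It rose by 1.02 on the log2 scale (SE 0.21, edgeR adjusted p = 0.0116), and without replicate 2 at 4.5DDC the adjusted p was 0.0513, the highest of a range from 0.000265. Rbpj, the DNA-binding partner of the receptor domain, had means of 20.4, 19.6 and 21.7 FPKM at the successive time points and did not pass.

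Of the other receptors and ligands Dner rose, 1 of 4 tested, beside 9.21% of all genes. DESeq2 called Dner and Dlk1, both higher (Dlk1 edgeR log2 difference 1.73, adjusted p = 0.0697), and limma voom called 0. Dner, a neuronal transmembrane protein with EGF-like repeats, was at 0.576, 1.98 and 1.65 FPKM at 4.5DDC, 0.663, 4.56 and 5.17 FPKM at 5.5DDC, and 3.23, 11.9 and 17.5 FPKM at 6.5DDC. Replicate 1 was lowest each time, as it was in the neuron marker sum, and the part of neuron content in the result was not tested. The gene rose by 2.93 on the log2 scale (SE 0.81, edgeR adjusted p = 0.0335).

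The Dner call was lost in 7 of 21 alternatives, with adjusted p between 8.4e-05 and 0.0890. These were limma voom (0.0711), limma on log2(FPKM + 0.1) (0.0576) and fits without replicate 1, 2 or 3 at 4.5DDC (0.0828, 0.0851 and 0.0733) or replicates 2 or 3 at 6.5DDC (0.0890 and 0.0818). In the remaining roles 0 of 4 ligand endocytosis genes and 0 of 5 other Hes and Hey genes passed in edgeR, beside 18.7% of all genes, with 0 and 2 at an unadjusted p under 0.05, beside 35.4%. DESeq2 called 0 and 1 of these, the 1 being Bhlhe40, and limma voom 0 and 0.

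**Figure D4:**
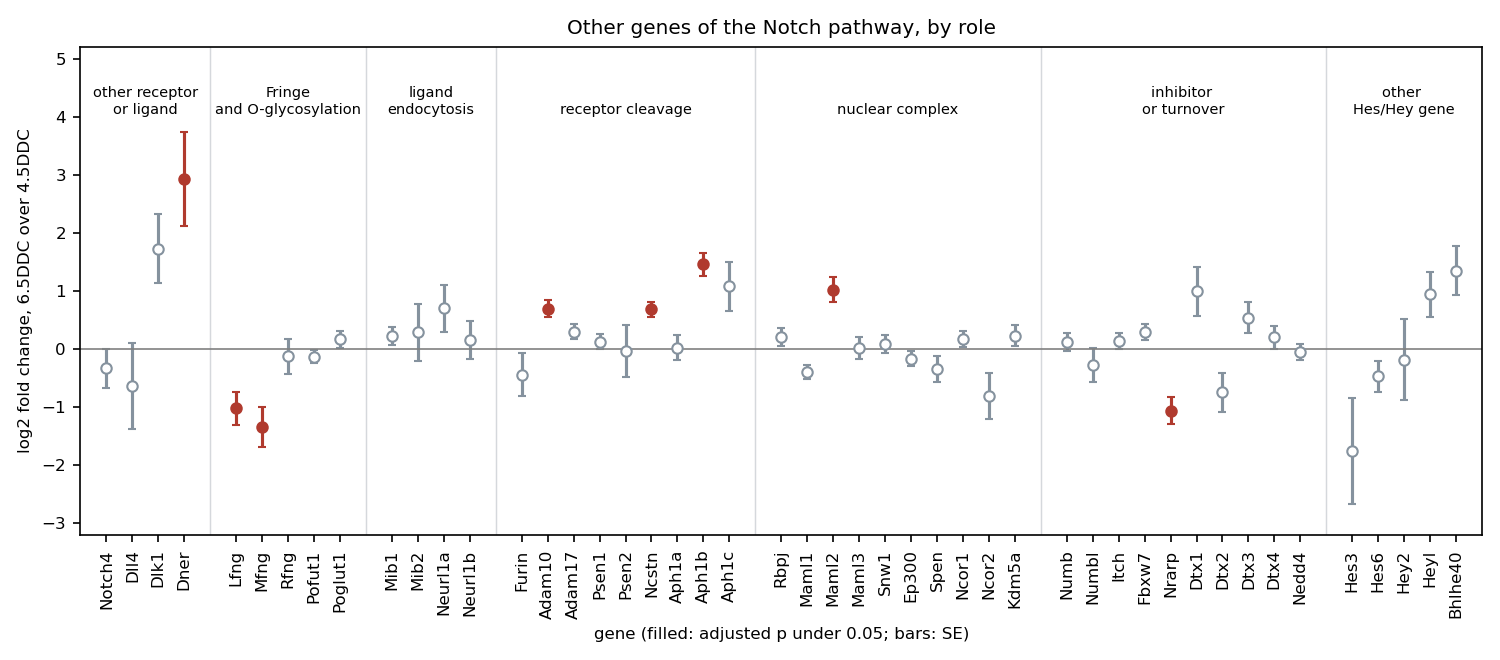
Log2 fold change from 4.5DDC to 6.5DDC (vertical axis) of the 47 tested genes of the wider Notch pathway (horizontal axis, grouped by role), with SE as bars and filled points for an adjusted p under 0.05. The 8 filled points are Dner, Adam10, Ncstn, Aph1b and Maml2 above 0 and Lfng, Mfng and Nrarp below 0.

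The proneural genes, whose transcription Hes and Hey proteins repress, were followed beside the members. Of 7 listed, 6 were tested and Atoh1 had 0 counts in all 9 libraries, and 1 of 6 passed from 4.5DDC to 6.5DDC. Neurog3 was at 0.377, 1.05 and 0.504 FPKM at 4.5DDC and at 0.579, 15.7 and 32.1 FPKM at 6.5DDC, so replicate 1 overlapped the earlier libraries. It rose by 4.61 on the log2 scale (SE 1.24, edgeR adjusted p = 0.0305).

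The Neurog3 call was lost in 8 of 21 alternatives, with adjusted p from 0.000392 to 0.237. These were limma voom (0.237), limma on log2(FPKM + 1) and log2(FPKM + 0.1) (0.110 and 0.113), and fits without replicates 1, 2 or 3 at 4.5DDC (0.0824, 0.0846 and 0.0861) or replicates 2 or 3 at 6.5DDC (0.0748 and 0.0733). Neurog1 and Neurog2 were at most at 1.75 FPKM in every library, with whole-span log2 differences of -2.59 and -1.85 and edgeR adjusted p of 0.0585 and 0.247. Neurog1 passed in 6 of 21 alternatives, among them DESeq2 (0.0260) and fits without replicate 1 at 4.5DDC (0.0484) or at 5.5DDC (0.0310), in a range from 0.00532 to 0.230. Neurog2 passed in 3 of 21, among them the fit without the libraries numbered 1 (0.0105), in a range up to 0.621.

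For Notch2, Dll1 and Hey1, the members with the highest mean over 9 libraries in each role, the genes with the most similar pattern over the 9 libraries were found by Pearson correlation of log2 CPM among 10149 genes. The means of Notch2 and Notch1 were close, at 29.1 and 28.6 FPKM. Notch2 was closest to Dzip1l (r = 0.979), Pcnx (0.965) and Cpne2 (0.963). Dll1 was closest to Cdc25b (r = 0.986), Mical3 (0.979) and Igsf9 (0.975), and Hey1 to Acot13 (0.968), Trim9 (0.964) and Tmem260 (0.963). These values are descriptions over libraries that share time points and replicate numbers.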

How the data were processed

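Polyadenylated RNA of 9 libraries was sequenced by the authors, who aligned reads to GRCm38 with TopHat2 2.0.4. The deposited expected counts (HTSeq 0.6.1) were rounded to whole numbers, since 98 of 38197 symbols were not whole, although plain counts had been assumed in the plan. The deposited FPKM values, made by the authors with Cufflinks 2.1.1, were used as given. Release of the gene annotation and strand setting are not stated, and the deposited log2 table was not used here.

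In R 4.3.3, edgeR 4.0.16 fitted the 9 libraries with time point as factor (TMM, filterByExpr, quasi-likelihood test, Benjamini-Hochberg over 14742 genes, threshold 0.05, 6 residual degrees of freedom). TMM factors ran from 0.951 to 1.04, and the totals from 11066568 to 25506193. An exact permutation test of 3 libraries against 3 cannot give a p under 0.1 and was not used. Alternatives used DESeq2 1.42.0, limma 3.58.1, other scalings and filters, and libraries left out.

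Libraries of the same number correlated in their deviations from the time point mean by 0.743, 0.386 and 0.452 between 4.5DDC and 5.5DDC, by 0.454, 0.367 and 0.197 between 5.5DDC and 6.5DDC, and by 0.383, -0.040 and -0.215 between 4.5DDC and 6.5DDC. Replicates 2 and 3 also correlated positively across numbers. The value was 0.390 for replicate 3 at 4.5DDC with replicate 2 at 5.5DDC, and 0.405 for replicate 3 at 5.5DDC with replicate 2 at 6.5DDC. Over the whole span it was 0.487 for replicate 3 at 4.5DDC with replicate 2 at 6.5DDC. For replicate 2 at 4.5DDC with replicate 3 at 6.5DDC it was 0.460. Replicate 1 correlated negatively with replicates 2 and 3 of every other time point. Deviations within a time point sum to 0 for each gene, so part of this sign is built in. The blocked counts, 212 and 195 genes for the adjacent intervals and 3418 for the whole span, are given beside the main ones. The members and lists were chosen with earlier results of these data known. Named are all members, each listed pathway gene past the threshold over the whole span or near 0, up to 4 proneural genes, the 3 genes most correlated with the top member of each role (log2 CPM with prior count 2, among tested genes averaging 5 FPKM or more), and for markers the sum, the top gene, genes at 0 and those past or near the threshold. Coordinates and exon overlaps are from GENCODE M21, which held 34317 symbols of the tables (89.8%). Sample times follow the cell status labels, since the source labels give whole days.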

Additional observations from a re-analysis of the deposited data

How the results depend on the processing

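Over 21 alternatives, the members' log2 differences gave 630 values, of which 596 kept direction and side of the threshold, 19 passed it and 15 turned in sign; the causes were not tested. The 8 pathway genes called gave 168 values, of which 144 kept and 24 lost the call. From 4.5DDC to 5.5DDC, in place of 11 genes, no filter gave 25, DESeq2 495, limma on log2(FPKM + 1) 7, the 6 libraries alone 1, the replicate block 212, and leaving out 1 library 1 to 28. From 5.5DDC to 6.5DDC, in place of 33, no scaling gave 55, no filter 78, DESeq2 662, limma on log2(FPKM + 1) 12 and on log2(FPKM + 0.1) 0, the 6 libraries alone 0, the replicate block 195, and leaving out 1 library 0 to 196. Over the whole span leaving out 1 library gave 1125 to 3132 genes in place of 2763. For any time point, in place of 1420, the replicate block gave 2180 and leaving out 1 library 323 to 1831; DESeq2 and the 6 libraries alone give no such value. The interval difference called 0 to 2 genes with 1 library left out.

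Among the members, DESeq2 called 1 from 5.5DDC to 6.5DDC. Over the whole span no filter called 1, DESeq2 3, limma voom 1, the replicate block 2 (Dll3 and Jag1) and leaving out 1 library 0 to 2. For any time point no filter called 1 and leaving out 1 library 0 to 3. A pair of alternatives was chosen after seeing the data. A block for replicate 1 against 2 and 3 called 484, 634 and 4382 genes in the successive comparisons, 3287 for any time point, 0, 1 and 4 members and 2 members for any time point. Without the 3 libraries numbered 1 these were 485, 728, 4586 and 3316 genes, with 2 members over the whole span, and Hes1 turned to -0.11 from 4.5DDC to 5.5DDC and to -0.062 over the whole span.

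With 1 library left out, signs turned for Dll1 (-0.022 to 0.26), Jag2 (-0.19 to 0.52), Hes1 (-0.16 to 0.13) and Hes5 (-1.33 to 0.24) from 4.5DDC to 5.5DDC, for Jag1 (-0.54 to 0.027), Hes1 (-0.15 to 0.30) and Hey1 (-0.044 to 0.011) from 5.5DDC to 6.5DDC, and for Notch2 (-0.022 to 0.40) and Hes1 (-0.11 to 0.29) over the whole span. Depth limits Jag2 and Hes5, whose lowest counts were 19 and 12.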

Other observations

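Psenen, the smallest subunit of gamma-secretase, had counts of 1 to 9 in the 9 libraries and was not tested, yet its FPKM lay between 21.9 and 32.9. Its exons share 119 bases with U2af1l4 on the opposite strand and 111 bases with Gm49396. Which of the tables reflects the transcript was not tested.

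Radial glia markers were led by Fabp7, with a mean of 546 FPKM, and Slc1a3 and Nfia, 2 of 4 tested, rose from 4.5DDC to 6.5DDC, beside 9.21% of all genes. DESeq2 called Sox9 as well, and limma voom the same 2. Slc1a3, a glutamate transporter, rose by 1.74 on the log2 scale (SE 0.18, edgeR adjusted p = 0.00102), and Nfia, a transcription factor of gliogenesis, by 1.96 (SE 0.23, adjusted p = 0.00151). The radial glia sum was 168, 461 and 526 FPKM in replicates 1 to 3 at 4.5DDC and 718, 983 and 817 FPKM at 6.5DDC. Of the 7 neuron markers tested 1 rose, beside 9.21% of all genes. It was Map2, by 1.65 (SE 0.31, edgeR adjusted p = 0.00768). Kdr, 1 of 4 endothelial markers tested, rose by 1.76 (edgeR adjusted p = 0.0121). Twist1, 1 of 4 mesenchyme and neural crest markers tested, rose by 0.74 (edgeR adjusted p = 0.0276). The share of all genes was again 9.21%. DESeq2 called Pdgfra as well. Mesenchyme and neural crest markers summed to 6.58 to 47.1 FPKM, led by Col3a1, with Sox10 and Foxd3 at or under 3 counts. Endoderm markers summed to 6.95 to 14.7 FPKM, led by Cdh1, and pluripotent cell markers to 0.393 to 2.28 FPKM, led by Dppa5a, with Pou5f1 and Dppa5a at or under 3 counts.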
